A study of Mus musculus with 12 samples.

Results

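The 2 large keratin gene clusters of the mouse were followed through H3K27me3 islands of small-intestinal epithelium. H3K27me3 is the trimethylation of lysine 27 on histone H3. The type II window spanned 0.69 Mb of chromosome 15 (chr15:101180001-101870000, mm9) and the type I window 1.06 Mb of chromosome 11 (chr11:99080001-100140000, mm9). Every deposited island that overlapped either window was taken, whatever its strength, which gave 227 islands of 81097 over all 8 lists, 119 in the type II and 108 in the type I window. Between 7 (E12.5 replicate 1) and 53 (AE replicate 2) came from a single list.

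Chromatin immunoprecipitation and sequencing (ChIP-seq) was done on sorted cells of 4 populations of a mixed C57BL/6 CD1 background. E12.5 and E14.5 are EpCAM-positive epithelium of the embryonic small intestine, named by the embryonic day. ISC are Lgr5-EGFP-high intestinal stem cells and AE are EpCAM-positive enterocytes, both labelled postnatal day 60 and taken from males carrying the Lgr5EGFP-Cre-ERT allele, a reporter driven from the stem cell gene Lgr5. The embryonic cells and AE were gated as negative for CD31 and CD45, which leaves out endothelium and blood cells, and for the dead-cell dye DAPI. ISC were stained with the same antibodies, and their gate is given by Lgr5-EGFP alone. The AE gate names no marker of enterocytes beyond EpCAM. Each population gave 2 ChIP libraries, which the series design calls biological duplicates, and 1 input library. Whether animals were pooled is not given in the sources used here, and island lists hold no transcripts against which the sorted cell types could be checked. In bulk cells a shorter cover from fewer marked cells and one from less mark per cell cannot be told apart.

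Keratins are the intermediate filament proteins of epithelial cells, and each filament is built from pairs of an acidic type I and a basic type II keratin. Simple epithelia such as the gut lining use KRT8 with KRT18 and KRT19, and KRT20 is a marker of differentiated intestinal cells. Stratified epithelia such as epidermis use others, for example KRT5 with KRT14 in the basal layer and KRT1 with KRT10 above it, while hair uses the hair keratins and the keratin-associated proteins (Krtap genes). Polycomb complexes place H3K27me3 on genes that are kept silent, often as broad domains over whole gene clusters.

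The deposited lists carry no gene names, and the RefSeq gene table used here belongs to another assembly (GRCm38.p6), so genes were placed only by their order. In that order the type II cluster holds 26 Krt genes from Krt80 and Krt7 at the low end to Krt8 and Krt18 at the high end. Krt18 lies there although it encodes a type I keratin. The type I cluster holds 27 Krt and 23 Krtap genes. Below Krt20 lie 8 Krt genes (Krt222, Krt24 to Krt28, Krt10 and Krt12), and between Krt20 and Krt19 lie all 23 Krtap genes with 12 Krt genes, among them the hair keratins Krt31 to Krt36 and the stratified-epithelial Krt13 and Krt15. Above Krt19 lie Krt9, Krt14, Krt16, Krt17 and Krt42. On mm9 the gut keratins were placed as the rule for the windows gives them: Krt8 and Krt18 near the high end of the type II window, Krt20 near position 99300000 and Krt19 near position 100000000 of chromosome 11. These positions are approximate, so gaps in the islands are described around them and not at exons or promoters.

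The 250 bases before the start of 3 gut keratins are shown beside those of Krt5, the basal-layer type II keratin. The approximate positions of these 3 genes lay in no island of any list, which does not show that their promoters were free of islands. They come from RefSeq (GRCm38.p6), run 5′ to 3′ on the strand of the gene, and carry each CG dinucleotide in capitals.

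Krt8: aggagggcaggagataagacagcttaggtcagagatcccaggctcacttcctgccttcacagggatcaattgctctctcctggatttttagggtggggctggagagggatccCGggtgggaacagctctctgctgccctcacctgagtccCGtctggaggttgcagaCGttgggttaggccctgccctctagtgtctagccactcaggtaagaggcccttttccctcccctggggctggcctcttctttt
Krt18: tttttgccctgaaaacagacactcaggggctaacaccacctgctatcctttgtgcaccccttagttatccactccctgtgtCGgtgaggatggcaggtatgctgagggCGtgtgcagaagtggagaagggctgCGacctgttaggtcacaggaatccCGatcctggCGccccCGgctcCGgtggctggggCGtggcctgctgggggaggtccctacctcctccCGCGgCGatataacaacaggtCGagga
Krt20: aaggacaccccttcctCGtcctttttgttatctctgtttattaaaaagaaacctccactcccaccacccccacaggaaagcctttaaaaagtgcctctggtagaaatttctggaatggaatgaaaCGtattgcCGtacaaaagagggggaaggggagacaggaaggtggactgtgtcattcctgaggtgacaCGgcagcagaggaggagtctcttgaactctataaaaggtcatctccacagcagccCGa
Krt5: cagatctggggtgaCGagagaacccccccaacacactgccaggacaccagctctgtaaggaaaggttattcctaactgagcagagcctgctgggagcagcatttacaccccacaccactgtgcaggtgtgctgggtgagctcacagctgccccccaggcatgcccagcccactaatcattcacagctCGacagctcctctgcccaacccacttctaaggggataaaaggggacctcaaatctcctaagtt

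The CG count was 3 for Krt8, 12 for Krt18, 5 for Krt20 and 2 for Krt5. The dinucleotide reads the same on both strands, and the table's median over 32851 starts was 6 per 250 bases, with at least 1 CG in 92.1% of starts. Sequences were matched for 16 of the 26 Krt genes of the type II cluster and 20 of the 27 of the type I cluster, with a median of 4 CG and a range of 1 to 16 over 37 starts. The highest count was that of Krt7, a keratin of simple ducts and glands at the low end of the type II cluster. Starts of the Krtap genes held a median of 1 CG over 21 sequences, and 38.1% held none. Among the gut keratins shown, Krt18 was thus above the median of all starts, and Krt8 and Krt20 were below it. No sequence was matched for Krt19.

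An island is a run of 200 bp windows that the caller joined and scored as a whole for ChIP reads against the input. The lists covered 60.8 to 241 Mb of the genome, the extremes being ISC replicate 2 and ISC replicate 1, and held 1171968 to 6627853 ChIP reads inside islands. Sequence outside an island was not called in that list, which leaves its level unknown. Whether reads can be mapped in the uncalled stretches was not tested. The share of the genome in islands, on the grid from the first to the last island of each chromosome, was 2.44% and 2.96% for the E12.5 replicates 1 and 2, and 2.96% and 4.25% for those of E14.5. ISC replicates had 9.40% and 2.37%, and AE replicates 3.12% and 3.54%.

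Islands covered more of the type II window than of the genome in each of the 8 lists, and most of it in 3 of the 4 adult lists. The E12.5 replicates had 2.99% and 5.91% of the window in islands, and the E14.5 replicates had 16.3% and 30.5%. ISC replicates had 61.9% and 18.8%, and AE replicates 53.5% and 55.2%. Embryonic and adult lists overlapped through 1 library, ISC replicate 2, whose list is the shortest of all and which lay below E14.5 replicate 2. The mean was 13.9% ± 12.4 (SD, n = 4) in embryonic and 47.3% ± 19.4 (SD, n = 4) in adult libraries. The difference of 33.4 percentage points did not pass the exact two-sided permutation test over 35 distinct divisions of the libraries (p = 0.0571, Benjamini-Hochberg adjusted over the 2 windows 0.114). Over all autosomal tiles of the same length (3475 tiles), the median of this difference was 0.188 percentage points and the mean 1.61.

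Divided by the share of the genome in the same list, the type II cover was 1.23 and 2.00 times the genome in the E12.5 lists and 5.52 and 7.18 times in the E14.5 lists. ISC lists reached 6.58 and 7.95 times, and AE lists 17.2 and 15.6 times. On this ratio the AE libraries lay above all 6 other libraries, and the ISC libraries lay close to those of E14.5. Its ceiling is lower for a longer list, since cover cannot exceed the whole window, and ISC replicate 1 had the longest list. On the log2 scale, with 0.001 added to both shares, the adult libraries exceeded the embryonic ones by 1.78 (1.62 ± 1.19 against 3.41 ± 0.68, SD, n = 4 each; exact permutation p = 0.0571, adjusted 0.114). With every list cut to the length of the shortest by the authors' island p-values, the adult share exceeded the embryonic one by 26.9 percentage points with no overlap between the groups (exact permutation p = 0.0286, the smallest the design allows). At that length the share was 7.71% and 11.2% in the E14.5 lists, 35.9% and 18.8% in ISC, and 33.2% and 47.1% in AE. There AE replicate 1 lay below ISC replicate 1, and the ISC libraries lay above those of E14.5. With 1 library left out the difference in share, on the islands as deposited, ran from 28.6 percentage points without ISC replicate 1 (exact permutation p = 0.114) to 42.9 without ISC replicate 2 (exact permutation p = 0.0286). The log2 difference ran from 1.34 without E12.5 replicate 1 (exact permutation p = 0.114) to 2.18 without E14.5 replicate 2 (exact permutation p = 0.0286), and its highest p was that without AE replicate 1 (1.57, exact permutation p = 0.171). Each of these measures passed in 1 of its 8 leave-one-out fits. Each test treats the 2 libraries of a population as independent, so its p-value speaks of libraries and not of populations.

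**Figure D1:**
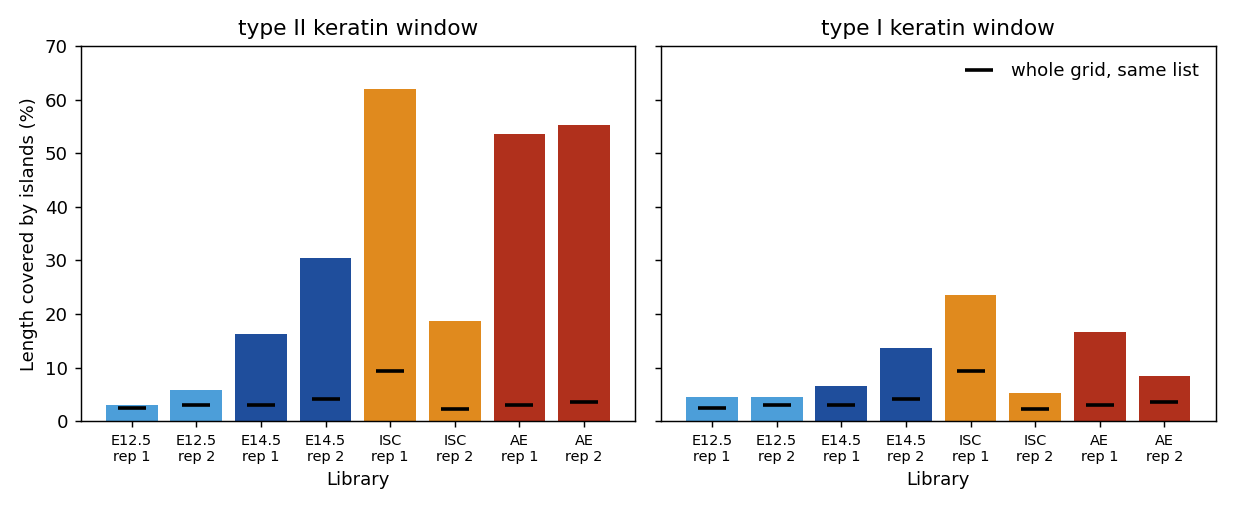
Length covered by islands (percent) in the type II and type I keratin windows, 1 bar per library, with the share of the whole grid in the same list as a black mark. Type II cover runs from 2.99% in E12.5 replicate 1 to 61.9% in ISC replicate 1, and type I cover from 4.55% in E12.5 replicate 2 to 23.5% in ISC replicate 1.

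The type I window carried less. Its covered share was 4.58% and 4.55% in the E12.5 replicates, then 6.64% and 13.6% in those of E14.5. It was 23.5% and 5.21% for ISC, then 16.6% and 8.47% for AE. Groups overlapped widely: ISC replicate 2 lay below both E14.5 libraries, and AE replicate 2 lay between them. Embryonic libraries averaged 7.33% ± 4.27 (SD, n = 4) and adult libraries 13.4% ± 8.25 (SD, n = 4), a difference of 6.11 percentage points (exact permutation p = 0.200, adjusted 0.200). Relative to the genome the log2 difference was 0.44 (exact permutation p = 0.314, adjusted 0.314), and it was 0.15 without AE replicate 1 (exact permutation p = 0.629). At equal covered length the difference in share was 4.70 percentage points (exact permutation p = 0.0286) and that relative to the genome 1.2 on the log2 scale (exact permutation p = 0.0286). The share was thus lower than in the type II window in 7 of the 8 lists, E12.5 replicate 1 being the exception; this contrast was not tested.

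Within the type II window, the adult lists held a stretch that no embryonic list touched. The longest run of the window without an embryonic island spanned 132 kb (chr15:101419601-101551400). ISC islands covered 66.8% and 37.3% of it, and AE islands 81.2% and 43.4%. The adult mean was 57.2% ± 20.4 (SD, n = 4) against 0% in all 4 embryonic lists. This run was found from the embryonic lists, so their 0% is given by its choice and no test is given. Of the whole window the ISC lists covered 61.9% and 18.8%, and the AE lists 53.5% and 55.2%. AE replicate 2 thus covered less of the run than of the window. In ISC replicate 1 and both AE lists the island with the highest fold of the window lay in this run. In AE replicate 1 an island of 37.4 kb (chr15:101438801-101476200) had 1898 ChIP and 428 control reads, a raw ratio of 4.43 and an authors' fold of 3.04, above 98.9% of the islands of its list. In AE replicate 2 the highest fold, 2.97, belonged to an island with 85 ChIP and 33 control reads (chr15:101496201-101500000). In ISC replicate 1 it was 2.50, with 366 and 187 reads (chr15:101453801-101462600), while ISC replicate 2 had its longest island here (20.6 kb, fold 1.82, 499 and 381 reads, chr15:101445401-101466000).

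In 3 of the 4 adult lists the islands over this run held fewer control reads per kb than the list as a whole. They numbered 13.5 and 15.6 per kb in AE, against 18.0 and 20.3 per kb over all islands of these lists, and 21.4 and 18.4 per kb in ISC, against 21.4 and 22.9. ChIP reads per kb were 41.3 and 27.3 in AE against 39.1 and 26.7 over all islands, and 29.2 and 21.7 in ISC against 27.5 and 24.6. In AE the control density was thus further from the list value than the ChIP density was. Its part in the folds was not tested.

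**Figure D2:**
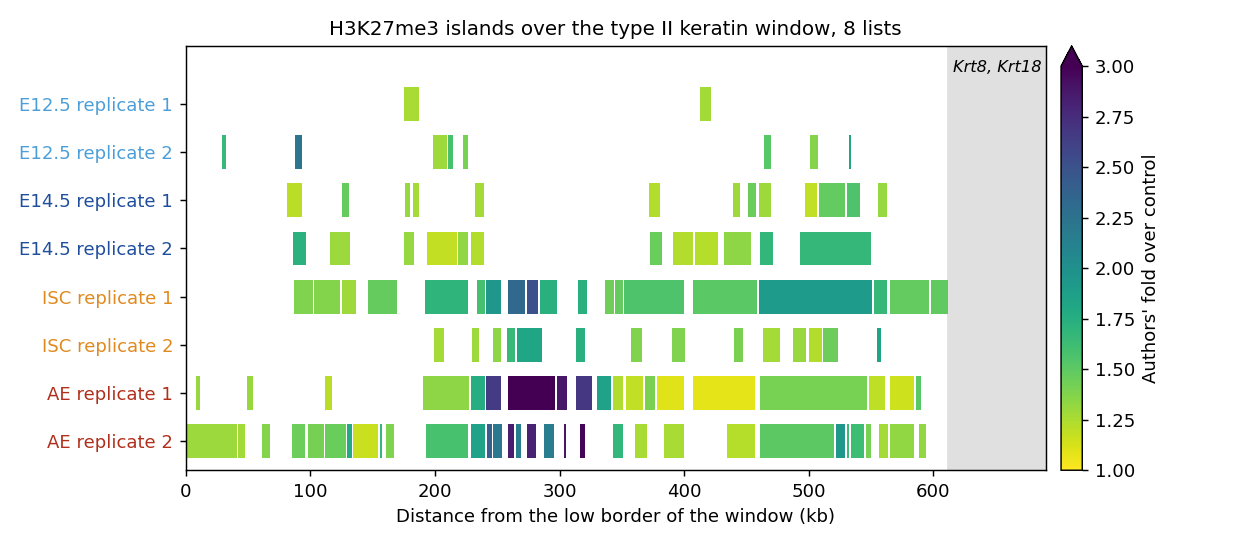
Islands over the type II keratin window in the 8 lists, by distance in kb from the low border of the window and coloured by the authors' fold over control. The grey band is the stretch without an island in any list that holds Krt8 and Krt18. Islands with folds up to 3.04 cover 37.3% to 81.2% of a run in the middle of the window in the adult lists. The run was chosen because the embryonic lists are empty there.

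A further domain toward the high end was called in 3 of the 4 embryonic and all 4 adult lists, to unequal extents. The longest island of the window spanned 91.2 kb in ISC replicate 1 (chr15:101639801-101731000, 3101 ChIP and 2075 control reads, fold 1.91). Over the same span the E12.5 lists covered 0% and 15.6%, the E14.5 lists 55.7% and 73.5%, ISC replicate 2 covered 50.2%, and the AE lists 97.8% and 91.9%. E12.5 was lowest in both replicates, and E14.5 overlapped with the adult lists through ISC replicate 2. The longest islands of E14.5 replicate 1 (20.8 kb, chr15:101688201-101709000, fold 1.48), E14.5 replicate 2 (56.6 kb, chr15:101673201-101729800, fold 1.67), AE replicate 1 (86.2 kb, chr15:101640401-101726600, fold 1.41) and AE replicate 2 (chr15:101640401-101700400, fold 1.5) all lay in it. The longest E12.5 islands lay nearer the low end (chr15:101355001-101367000 in replicate 1 and chr15:101378401-101389400 in replicate 2). Control reads ran at 19.8 to 24.4 per kb in the islands over this span.

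The end of the type II window that holds Krt8 and Krt18 was free of islands in all 8 lists. No list called any of its last 70 kb (chr15:101800001-101870000), while the rest of the window was covered at 3.32% to 68.8%. The window minus the rest came to -34.1 percentage points (SD 26.0, n = 8), with the same direction in 8 of 8 libraries (exact two-sided sign-flip permutation test, p = 0.00781, the smallest it allows, adjusted over the 3 gut windows 0.0117). With the window at 0% everywhere, the direction is set wherever the rest holds an island, and the size is the cover of the rest, from -3.32 in E12.5 replicate 1 to -68.8 in ISC replicate 1.

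Around this end the stretch without islands measured 369.0 and 221.6 kb in the E12.5 lists and 231.2 and 166.0 kb in the E14.5 lists. It was 176.0 and 337.2 kb for ISC, and 308.4 and 278.2 kb for AE. The part free of islands in all 8 lists was 104.0 kb (chr15:101791801-101895800), of which 78.2 kb lie inside the window. Its low edge is the end of an ISC replicate 1 island with a fold of 1.49, and its high edge the start of an E14.5 replicate 2 island with a fold of 1.47. Of the 16 stretches of the type II window that no list called, the next longest was 13.4 kb (chr15:101247601-101261000). All together made up 19.4% of the window, against 85.5% of the genome called in no list.

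The Krt19 and Krt20 positions also lay in gaps common to all lists, but the type I window is mostly uncovered. A place in such a gap is thus less unusual there than in the type II window. Of the type I window 61.2% was called in no list, in 31 stretches, against 85.5% of the genome. The longest of them held the Krt20 position (91.2 kb, chr11:99286601-99377800) and the second longest held the Krt19 position (87.8 kb, chr11:99948401-100036200). The next longest inside the window, of 59.2 kb (chr11:99586601-99645800), held none of the gut keratins. A stretch of 71.2 kb at the high border (chr11:100116401-100187600) had only 23.6 kb inside the window. Per list the gap at Krt20 ran from 104.2 kb in AE replicate 2 to 569.8 kb in ISC replicate 2, and that at Krt19 from 127.6 kb in E14.5 replicate 2 to 555.8 kb in E14.5 replicate 1. Neither of these approximate positions lay in an island of any list.

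Measured over 50 kb on either side, the share covered around Krt19 (chr11:99950001-100050000) was 0% in 5 lists, 4.2% in E14.5 replicate 2, 12.4% in ISC replicate 1 and 0.400% in AE replicate 1. It lay below the rest of the type I window in 8 of 8 libraries, with a mean difference of -9.13 percentage points (2.12% ± 4.40 against 11.3% ± 7.24, SD, n = 8; exact sign-flip permutation p = 0.00781, adjusted 0.0117). This test compares libraries at 1 fixed place, so another place largely uncalled in all lists could give such a p. It cannot tell whether the Krt19 position differs from other gaps of the window. The adjusted value also counts the Krt8 and Krt18 window, whose direction was set. For Krt19 the call was lost with 100 kb on either side (-2.39 percentage points, exact permutation p = 0.492). It was also lost when only islands with a false discovery rate (FDR) up to 1e-10 were kept (-1.63, exact permutation p = 0.0625). Around Krt20 (chr11:99250001-99350000) the share was 6.80% to 22.4%, against 4.02% to 23.6% in the rest, lower in only 3 of 8 libraries (11.9% ± 4.99 against 10.2% ± 7.32, SD, n = 8; exact permutation p = 0.453, adjusted 0.453). Its direction depended on the width: 25 kb on either side gave -6.87 percentage points (exact permutation p = 0.0625) and 100 kb gave 7.58 (exact permutation p = 0.00781). The wider windows take in islands on the low side of the Krt20 gap.

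**Figure D3:**
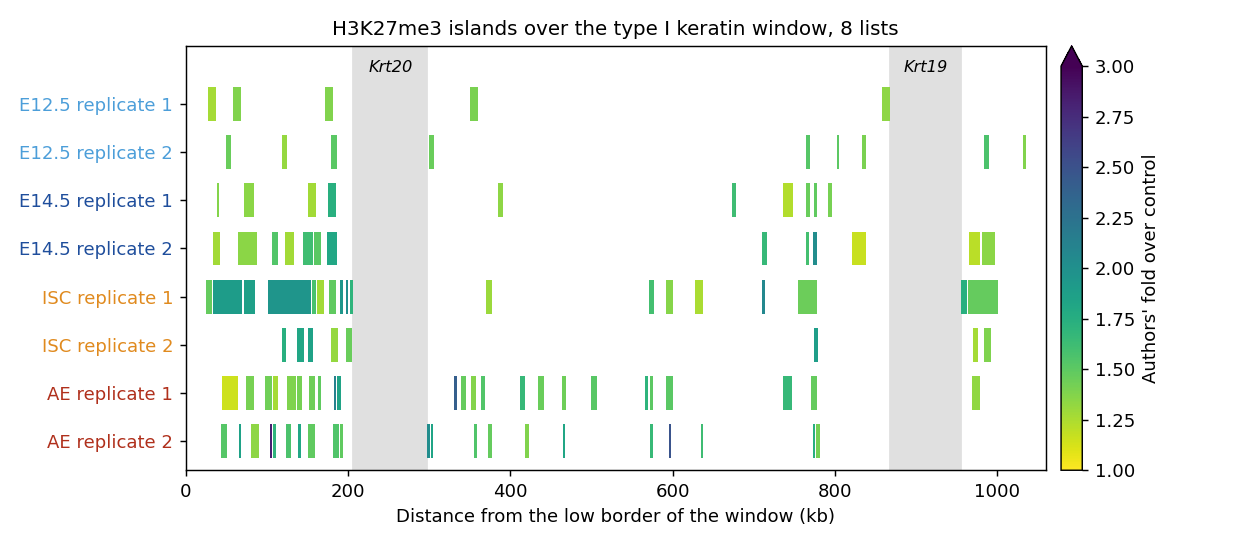
Islands over the type I keratin window in the 8 lists, by distance in kb from the low border and coloured by the authors' fold over control. Grey bands are the stretches without an island in any list that hold the Krt20 and Krt19 positions (91.2 and 87.8 kb), and the part below the former is covered at 8.81% to 70.4%.

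The type I window was most densely covered below Krt20 in 7 of the 8 lists (E12.5 replicate 2 excepted), on the side where Krt24 to Krt28, Krt10 and Krt12 lie in the gene order. Krt25 to Krt28 are keratins of the inner root sheath of hair, and Krt12 is the keratin of the cornea. Between the low border and the Krt20 gap (207 kb, chr11:99080001-99286600), E12.5 islands covered 13.9% and 8.81%, and E14.5 islands 16.4% and 38.8%. ISC islands covered 70.4% and 17.0%, and AE islands 40.3% and 25.6%. E12.5 was lowest in both replicates, and E14.5 overlapped with the adult lists. The longest type I island of all lists lay here, in ISC replicate 1 (53.0 kb, chr11:99181601-99234600, 1440 ChIP and 936 control reads, fold 1.96). The longest type I islands of E12.5 replicate 2 (chr11:99259001-99265800), E14.5 replicate 2 (chr11:99144801-99167600), AE replicate 1 (chr11:99124001-99144200) and AE replicate 2 (chr11:99159801-99169800) lay below Krt20 too. Those of E12.5 replicate 1 (chr11:99938201-99948400) and E14.5 replicate 1 (chr11:99815801-99828600) lay between Krt20 and Krt19, and that of ISC replicate 2 lay above Krt19 (chr11:100064401-100073200).

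Between the gaps, where the Krtap genes and hair keratins lie in the gene order, cover was lower (571 kb, chr11:99377801-99948400). E12.5 islands took 3.47% and 3.36% of it, E14.5 islands 6.41% and 5.89%, ISC islands 10.6% and 0.946%, and AE islands 14.7% and 6.48%. These shares were above the genome share of the same list in 7 of 8 lists, ISC replicate 2 being the exception. The AE lists had 13 and 11 islands there, the ISC lists 6 and 1, the E14.5 lists 6 and 4, and the E12.5 lists 2 and 4. The highest folds of AE were 2.40 (140 ChIP and 40 control reads) and 2.48 (43 and 20 reads), each with 11.1 control reads per kb. Over all AE islands there the control density was 13.3 and 15.6 reads per kb. Above the Krt19 gap (104 kb, chr11:100036201-100140000), next to Krt9, Krt14, Krt16 and Krt17 in the gene order, 3 lists had no island: E12.5 replicate 1, E14.5 replicate 1 and AE replicate 2. The others covered 10.4% (E12.5 replicate 2), 28.9% (E14.5 replicate 2), 41.8% and 14.1% (ISC) and 8.67% (AE replicate 1).

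**Figure D4:**
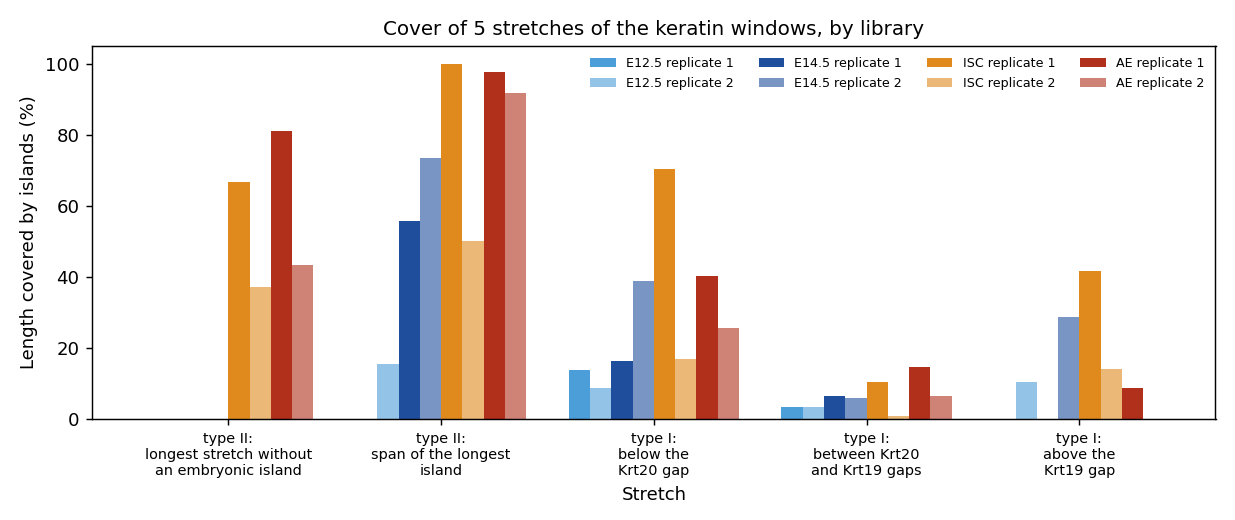
Length covered by islands (percent) in 5 stretches of the keratin windows, 1 bar per library, replicate 2 in the paler shade. The longest type II run without an embryonic island is covered at 37.3% to 81.2% in the adult lists, and the part of the type I window between the gut keratin gaps at no more than 14.7% in any list.

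Step by step, the type II window gained more than it lost from E12.5 to E14.5 and again from E14.5 to ISC. Gained means covered in both libraries of the later group and in neither of the earlier, and lost the opposite. These lengths are counts over all 4 libraries of a step and carry no test. An exact permutation of 2 libraries against 2 could not give a p below 0.33. From E12.5 to E14.5, 67.4 kb were gained in 13 stretches, 9.77% of the window against 0.701% of the genome, and 0 kb were lost (0.0995% of the genome). The E12.5 duplicates shared no called length in this window, so no length could count as lost at this step. The longest gain, 20.8 kb (chr15:101688201-101709000), was covered in full in ISC replicate 1 and AE replicate 1, at 67.3% in ISC replicate 2 and at 94.2% in AE replicate 2. The next were 7.8 kb (chr15:101552401-101560200), which ISC replicate 2 and AE replicate 2 did not call, and 7.2 kb (chr15:101714201-101721400), which ISC replicate 2 did not call. From E14.5 to ISC, 57.2 kb were gained, 8.29% against 0.701% of the genome, and 5.8 kb lost, 0.841% against 0.486%. The longest of these gains were 8.8 kb each (chr15:101453801-101462600 and chr15:101537601-101546400), and the AE lists covered 100% and 81.8% of the former and 100% and 65.9% of the latter. The next was 7.0 kb (chr15:101445401-101452400), with folds of 2.33 and 1.82 in the ISC lists. The longest loss was 4.0 kb (chr15:101356201-101360200), which neither AE list called, and the others 1.0 kb (chr15:101265801-101266800) and 0.8 kb (chr15:101362401-101363200). From ISC to AE, 7.8 kb were gained, 1.13% against 0.102% of the genome, and 0 kb lost (0.464% of the genome). The longest of these gains were 3.6 kb near the low border (chr15:101188001-101191600), 1.8 kb (chr15:101483401-101485200, fold 2.88 in both AE lists) and 1.2 kb (chr15:101523401-101524600).

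These lengths depend on single libraries. Leaving out a library loosens the definition, so each length can only stay the same or grow. The first gain was 155.8 kb without E14.5 replicate 1, and the second 224.8 kb without ISC replicate 2. Type II loss from E12.5 to E14.5 was 2.8 and 0.4 kb without E12.5 replicate 1 and 2. That from E14.5 to ISC was 17.6 and 14.2 kb without E14.5 replicate 1 and 2. Without ISC replicate 1 it was 56.0 kb, against a gain of 63.0 kb. From ISC to AE the gain was 147.4 kb without ISC replicate 1, 71.2 kb without AE replicate 1 and 34.0 kb without AE replicate 2, and the loss 1.6 and 37.8 kb without ISC replicate 1 and 2 and 15.4 and 0.2 kb without AE replicate 1 and 2. Gains exceeded losses in the type II window at the first 2 steps in each of these cases, and at the last step in all but that without ISC replicate 2. At the step from E12.5 a loss was possible only with an E12.5 library left out.

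In the type I window, 26.4 kb were gained from E12.5 to E14.5 (2.49% of the window) and 0 kb lost. The longest gain was 11.4 kb (chr11:99152201-99163600), below Krt20, followed by 5.8 kb (chr11:99230801-99236600) and 3.8 kb (chr11:99854001-99857800). From E14.5 to ISC 18.2 kb were gained (1.72%) and 0.8 kb lost (0.0755%). The gains were longest at 7.8 kb (chr11:99217001-99224800), 4.2 kb (chr11:99198001-99202200) and 3.2 kb (chr11:99277201-99280400), all below Krt20. Both losses were of 0.4 kb (chr11:99240001-99240400 and chr11:99255601-99256000). From ISC to AE 6.6 kb were gained (0.623%) and 24.6 kb lost (2.32%). The gains were longest at 3.0 kb (chr11:99545001-99548000), 1.8 kb (chr11:99435401-99437200) and 1.4 kb (chr11:99267401-99268800). The longest loss was 8.8 kb on the high side of Krt19 (chr11:100064401-100073200), where the ISC islands had folds of 1.47 and 1.39. The next losses were 5.0 kb (chr11:99198001-99203000) and 3.2 kb (chr11:99277201-99280400), both below Krt20, and the latter was a gain of the step before. Loss at this step in total was 131.0 kb without ISC replicate 2. The gain to E14.5 was 110.2 and 55.6 kb without E14.5 replicate 1 and 2, and losses at that step were 24.2 and 35.4 kb without E12.5 replicate 1 and 2. At the step to ISC the gain was 35 kb without E14.5 replicate 2 and 131.6 kb without ISC replicate 2, and the loss 26.4, 28.6, 25.2 and 2.2 kb without E14.5 replicate 1, E14.5 replicate 2, ISC replicate 1 and ISC replicate 2. At the step to AE the gain was 39.2, 24.2 and 71.2 kb without ISC replicate 1, AE replicate 1 and AE replicate 2.

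Length called in all 4 adult and no embryonic list came to 43.4 kb in the type II window, in 9 stretches, 6.29% of it against 0.173% of the genome. The longest were 7.2 kb (chr15:101453801-101461000) and a pair of 6.2 kb (chr15:101426801-101433000 and chr15:101651001-101657200). In the first of them the islands had folds of 2.50 and 1.82 (ISC replicates) against 3.04 and 2.81 (AE replicates). The total was 107.8 kb without ISC replicate 2. In the type I window it was 2.8 kb in 1 stretch (0.264%, chr11:99218801-99221600), 17.6 kb without ISC replicate 2 and 6.2 kb without AE replicate 2. Length called in all embryonic and no adult list was 0 kb in both windows (0.0550% of the genome), or 4.8 kb in the type II and 0.4 kb in the type I window without E12.5 replicate 2. No part of either window was called in all 8 lists, against 0.429% of the genome. In the type II window the absence of embryonic-only length and of length called in all lists was set in advance. The E12.5 duplicates shared no called length there.

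The raw ratio of ChIP to control reads (column 4 over column 5 of the lists) is the authors' fold times a constant of each list (0.571 to 1.46), so each is read within its list. In the type II window the median ratio was 0.738 and 0.972 in the E12.5 lists, against medians of 0.805 and 1.04 over each list. It was 1.2 and 0.756 in the E14.5 lists against 1.46 and 0.953, and 1.22 and 0.997 in ISC against 1.15 and 1.04. In AE it was 1.95 and 1.34 against 2.10 and 1.32. Typical type II islands were thus below the list median in all 4 embryonic lists, and in ISC replicate 2 and AE replicate 1. In the type I window the E12.5 medians were 0.804 and 0.913 and the E14.5 medians 1.29 and 0.863. ISC had 1.24 and 1.15, and AE 2.14 and 1.40. They were above the list median in all 4 adult and none of the embryonic lists. Islands with an FDR up to 1e-10 made up a share of each list that differed widely. It was 8.80% and 26.2% in the E12.5 lists, 43.2% and 44.0% in the E14.5 lists, 38.8% and 18.4% in the ISC lists, and 34.4% and 19.2% in the AE lists. In the type II window 0 of 2 and 1 of 8 E12.5 islands reached it, 2 of 13 and 3 of 12 E14.5 islands, 13 of 19 and 1 of 14 ISC islands, and 8 of 19 and 14 of 32 AE islands. In the type I window these were 0 of 5 and 0 of 9, 1 of 10 and 3 of 13, 8 of 18 and 1 of 8, and 5 of 24 and 0 of 21 in the same order. No test was made of these counts.

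**Figure D5:**
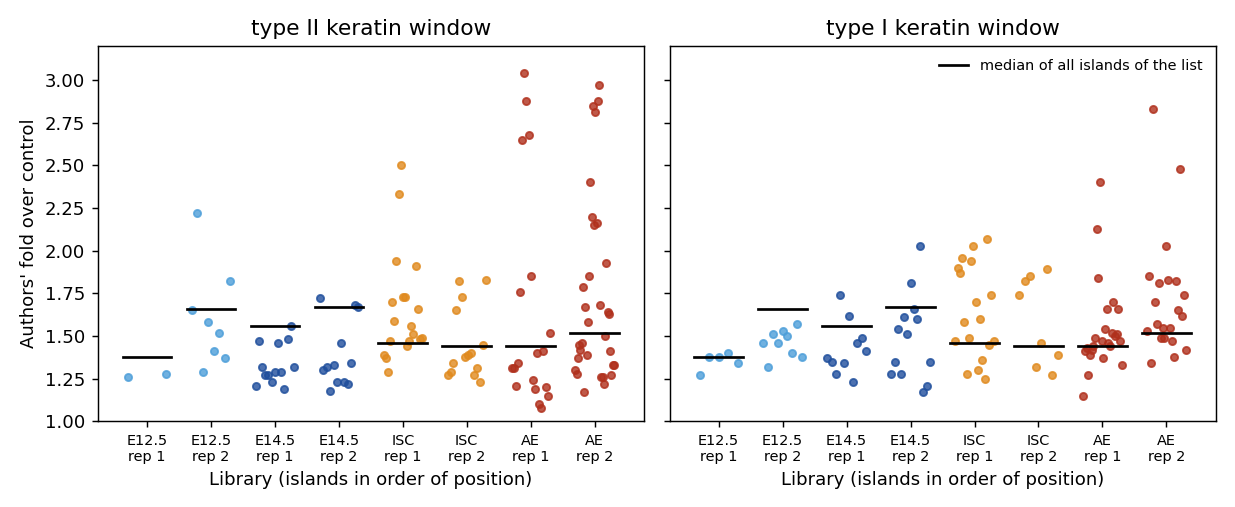
Authors' fold over control of every island in the type II and type I keratin windows, 1 point per island in order of position, with the median of all islands of the list as a black line. The highest folds are 3.04 and 2.97 in the AE lists, and the embryonic lists reach 2.22 (type II, E12.5 replicate 2).

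Which parts of the windows were called was shared unevenly between duplicates. The Jaccard index, the length called in both lists over that called in either, was 0 between the E12.5 duplicates in the type II window and 0.392 between those of E14.5. ISC duplicates had 0.275 and AE duplicates 0.516. ISC replicate 1 had indices of 0.697 and 0.610 with the AE lists, above all duplicates. The index tends to rise with the share covered, and no value for independent placement was computed. ISC replicate 1 covered 61.9% of this window and the AE lists 53.5% and 55.2%, against 2.99% and 5.91% in the E12.5 lists. In the type I window the duplicates gave 0.0320, 0.234, 0.194 and 0.255 in the same order. The E12.5 islands were few, 2 and 8 in the type II and 5 and 9 in the type I window. The type II window's low border cut 1 island, in AE replicate 2 (chr15:101179201-101220800), and no island crossed the other borders. The nearest islands outside lay 4.80 to 291 kb below the type II window and 25.8 to 208 kb above it.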

How the data were processed

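The submitters' processing notes name SICER 1.1 and Bowtie 1.1.2, SAMtools 1.2, bcl2fastq 1.8.4 and the mm9 build, with no settings. The deposited lists, 1 per ChIP library, have no header, and their columns were read from the values. ChIP and control reads per island are deposited as whole-number counts that are not normalized. The fold, a ratio of ChIP to control reads scaled by library size, and the p-value and FDR (at most 0.01) of each island are the authors' own deposited values. Islands were painted on a 200 bp grid with Python 3.11.15, numpy 2.4.6 and pandas 2.3.3. Shares and lengths were computed from the grid, and the exact tests were checked on simulated data. No count test was possible, since reads are listed only inside each library's own islands. P-values rest on relabelled libraries (permutation) or on changed signs of the differences within libraries (sign-flip), so they speak of these libraries only. Intervals for island reads are not given.

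The windows, lists of genes and stretches were chosen with earlier results of these data known. The text names up to 3 longest stretches of each class, the longest island per list and the gaps at the gut keratins, chosen by a rule. The 2 type II stretches and the parts of the type I window between gaps were chosen after their values were seen. No mm9 annotation was at hand, so the approximate windows of the design were used. Alternatives were an FDR of 1e-10 or less, a fold of 1.5 or more, equal covered length (60.8 Mb), no islands above the 99th percentile of control density, borders moved by 50 kb, other gut windows, a replicate block and each library left out.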

Additional observations from a re-analysis of the deposited data

Results flagged for a closer look

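Among the adult libraries, AE replicate 1 stood apart in type I cover relative to the genome, at 5.32 times against 2.20 to 2.50 times in the others, beyond Dixon's 95% limit for 4 samples. Chance flags about 1 in 20 such groups, and 8 were looked at. Its list held 24 islands in the window, with 15.0 control reads per kb against 18.0 over the whole list. Without it the type I difference between adult and embryonic libraries was 0.15 on the log2 scale, against 0.44 with it.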

How the results depend on the processing

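Differences between adult and embryonic libraries kept their direction in all settings. With the islands as deposited none of the 4 passed 0.05. At equal covered length all 4 did: 26.9 and 4.70 percentage points (type II, type I) and log2 differences of 2.37 and 1.2. With a fold of 1.5 or more the log2 differences, 3.25 and 2.18, did (exact permutation p = 0.0286 each). Leaving out 1 library gave 28.6 to 42.9 and 2.75 to 8.86 percentage points, and 1.34 to 2.18 and 0.15 to 0.63 on the log2 scale. The Krt8 and Krt18 window was at 0% in all lists, so no filter on islands could change its direction and its p says nothing of stability. Its difference ran from -38.5 to -29.1 with 1 library left out. The Krt19 result was lost with an FDR of 1e-10 or less (-1.63) and with 100 kb on either side (-2.39), and ran from -9.71 to -7.88 with 1 library left out. The Krt20 result reversed with 25 kb (-6.87) and passed with 100 kb (7.58), and ran from 0.26 to 3.26 with 1 library left out. The cause was not tested.

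Lengths in kb follow, type II before type I. With an FDR of 1e-10 or less, gains were 31.6 and 10.0 (to E14.5), 17.8 and 7.8 (to ISC) and 16.4 and 0 (to AE). Losses were 0 and 10.0 (to ISC) and 8.2 in type I (to AE), and adult-only length 7.2 and 0. With a fold of 1.5 or more, gains were 8.6 and 3.4 (to E14.5) and 32.2 in type II (to ISC). Losses were 0 and 10.0 (to ISC) and 3.8 and 15.0 (to AE), and adult-only length 18.8 and 0. At equal covered length, gains were 33.0 and 3.8 (to E14.5) and 19 in type II (to AE). Losses were 0 and 3.8 (to ISC) and 8.8 and 7.0 (to AE), and adult-only length 27 in type II. Stricter lists hold fewer islands. Without islands of high control density, the type II loss to ISC was 9.6 and its gain to AE 12.2. With borders moved in by 50 kb that gain was 4.2, and with stretches of 1 kb or more the type I loss to ISC was 0.

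With 1 library left out, these lengths can only stay the same or grow, so the low end of each range is the value with all libraries. Gains to E14.5 ran from 67.4 to 155.8 and from 26.4 to 110.2, and losses from 0 to 2.8 and from 0 to 35.4. Gains to ISC ran from 57.2 to 224.8 and from 18.2 to 131.6, and losses from 5.8 to 56.0 and from 0.8 to 28.6. Gains to AE ran from 7.8 to 147.4 and from 6.6 to 71.2, and losses from 0 to 37.8 and from 24.6 to 131.0. Embryonic-only length ran from 0 to 4.8 and from 0 to 0.4, and adult-only length from 43.4 to 107.8 and from 2.8 to 17.6. With a replicate block (divisions within replicate numbers, smallest p 0.0556) the differences were the same, 33.4 and 6.11 percentage points (exact permutation p = 0.111 and 0.222) and 1.78 and 0.44 on the log2 scale (p = 0.0556 and 0.33, exact permutation). The labels give same-numbered libraries only a number in common. The correlation of their deviations ran from -0.0336 to 0.0266, which cannot show whether they shared a batch.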
